A study of Mus musculus with 24 samples.

Results

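MHC class I antigen presentation was followed through 10 genes, taken by symbol from 3 count tables of mouse pancreatic cancer cells: B2m, H2-K1, H2-D1, Tap1, Tap2, Tapbp, Psmb8, Psmb9, Psmb10 and Nlrc5. All 10 were found among the 55401 genes of each table. The RNA-seq libraries number 24 and fall into 11 groups, all grown on collagen. KPsh cells carry a short hairpin against Trp53 that doxycycline keeps on, so that withdrawal restores endogenous p53. They were kept on 1 µg/ml doxycycline (3 libraries) or taken off it for 10 days (3 libraries). KPnull cells have no p53 of their own and received doxycycline for 48 hours to induce an empty vector, wild-type p53 (p53WT), p53 mutated in transactivation domain 1 (TAD1m), in domain 2 (TAD2m) or in both (TAD12m), with 2 libraries each. The third table holds KPsh cells that carry a guide RNA targeting Pcyt2, an enzyme of phosphatidylethanolamine synthesis, either as such (sgPcyt2) or with a guide-resistant Pcyt2 cDNA added back (cDNA), on doxycycline or off it for 6 days, again with 2 libraries each. By their labels the cDNA cells carry the guide as well. Their count columns are named for wild-type Pcyt2 and were matched to them by elimination, and Pcyt2 was at 2193 to 2636 CPM (counts scaled to a common library total) in those columns against 17.7 to 28.6 CPM in the sgPcyt2 columns. The growth protocol gives doxycycline for KPnull cells, while the series text also speaks of such cells without it, so that all 10 KPnull libraries, the vector included, were taken as on doxycycline. These are cultured cell lines, and the number of clones behind each is not given in the sources used here. The labels do not say that libraries of a group came from separate cultures, so p-values here measure nothing but library-to-library spread, part of which could be technical.

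Class I molecules show peptides from inside the cell to CD8+ T cells. Proteasomes cut the proteins, and the inducible subunits Psmb8, Psmb9 and Psmb10 can take the place of the standard catalytic subunits. The transporter made of Tap1 and Tap2 moves peptides into the endoplasmic reticulum, where tapasin, the product of Tapbp, helps to load them onto a heavy chain such as H2-K1 or H2-D1 paired with beta-2 microglobulin (B2m). Nlrc5 is a transactivator that works at class I promoters together with the RFX, CREB/ATF and NF-Y factors, and interferon gamma is the best known inducer of the whole set. Low class I levels are common in pancreatic cancer cells. In bulk RNA, fewer expressing cells and less RNA per cell cannot be told apart.

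On the mm10 assembly, 7 of the 10 genes lie on chromosome 17 in or near the H2 complex. They include H2-K1 at chr17:33996018-34000283 on the minus strand and Tapbp at chr17:33919332-33929292 on the plus strand. Tap2 lies at chr17:34203527-34216321 and H2-D1 at chr17:35263096-35267353, both on the plus strand. B2m lies outside the complex at chr2:122147686-122153083, Psmb10 at chr8:105935739-105938444 and Nlrc5 at chr8:94434391-94527272. Tap1 and Psmb9 start next to each other on opposite strands, and their 300-base promoter windows share 275 bases.

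Promoter windows from RefSeq (GRCm38.p6, 300 bases around the start) were found for 8 members, all but Tap2 and Nlrc5. The upstream 200 bases of 4 members are shown because B2m, H2-K1 and H2-D1 have the class I promoter elements and because Tap1 had the largest change from p53. Capitals mark matches to the interferon-stimulated response element (GAAA, any 2 bases, GAAA), the CRE half-site (TGACG, the X2 element of class I promoters) and the NF-kB element. They run from chr2:122147487-122147686 (plus strand), chr17:34000348-34000547 (minus strand), chr17:35262894-35263093 (plus strand) and chr17:34187356-34187555 (plus strand), in that order.
B2m: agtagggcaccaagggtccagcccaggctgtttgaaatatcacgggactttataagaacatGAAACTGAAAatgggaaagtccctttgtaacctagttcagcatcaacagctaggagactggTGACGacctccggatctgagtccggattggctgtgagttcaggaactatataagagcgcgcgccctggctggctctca
H2-K1: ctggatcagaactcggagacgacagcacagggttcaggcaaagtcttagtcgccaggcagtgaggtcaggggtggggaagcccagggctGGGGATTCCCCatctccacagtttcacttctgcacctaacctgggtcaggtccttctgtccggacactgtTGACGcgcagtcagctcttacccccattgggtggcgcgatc
H2-D1: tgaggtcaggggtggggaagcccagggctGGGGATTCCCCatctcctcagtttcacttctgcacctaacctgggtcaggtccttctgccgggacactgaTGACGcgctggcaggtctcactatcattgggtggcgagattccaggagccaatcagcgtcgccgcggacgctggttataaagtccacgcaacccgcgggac
Tap1: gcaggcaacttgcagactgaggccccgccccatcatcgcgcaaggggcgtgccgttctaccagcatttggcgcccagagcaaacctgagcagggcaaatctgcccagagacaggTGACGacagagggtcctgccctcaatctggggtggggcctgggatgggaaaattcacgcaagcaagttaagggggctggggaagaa
Counted from the RefSeq start, the B2m window held the interferon element at -139 to -130 and a CRE half-site at -78 to -74. H2-K1 held NF-kB letters from -111 to -101 and a CRE half-site at -41 to -37, and H2-D1 the same pair at -171 to -161 and -101 to -97. Those H2-K1 and H2-D1 windows were alike at 211 of 239 aligned bases (88.3%). In Tap1 a CRE half-site stood at -86 to -82. Searched on both strands over the 300 bases, CRE half-sites were in 5 of the 8 members' windows against 20.8% of all 32851 RefSeq windows, and NF-kB letters in 2 (H2-K1 and H2-D1) against 5.89%. The interferon element was in 1 of 8 (3.44% of all), the GAS element TTCNNNGAA in 1, Psmb8 (8.30% of all), and CCAAT, which can be bound by NF-Y, in 6 (37.4% of all). These counts are not of independent windows: the CRE half-site and the CCAAT of Tap1 are the same bases as those of Psmb9, and the H2-K1 and H2-D1 windows are near copies. The p53 half-site was in none of the 8, against 8.36% of all windows. A match is a description of the letters in a short window and not evidence of binding. Only exact letters were searched. A window without a match, such as those of H2-K1 and H2-D1 for the interferon element, may hold a variant of it.

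Total deposited counts were 9393966.5 to 12983420.5 per KPsh library, 13657592.0 to 19431249.5 per KPnull library and 13801514.5 to 17127760.5 in the Pcyt2 table. Levels below are in CPM, a gene's counts scaled to a common library total after TMM adjustment. Trp53 followed the labels, at 258 ± 5.8 CPM (SD, n = 3) in KPsh cells off doxycycline against 21.1 on it, and at 5.33 CPM in vector cells against means of 527 to 668 CPM with a p53 form. In the Pcyt2 table it rose less, from 20.9 to 41.9 CPM in sgPcyt2 and from 19.8 to 92.0 CPM in cDNA cells, though Cdkn1a, a p53 target, went from 73.6 to 296 and from 50.04 to 388 CPM. The 7 keratin and other ductal markers summed to 5006 to 13002 CPM in every library, with Krt8 and Krt18 each at 1340 CPM or more throughout. Epcam was scarce in all 3 tables (at most 1.38 CPM), Sox9 was at 0.824 to 2.02 CPM in KPnull cells, and Krt7 was at 0.190 to 2.40 CPM in the Pcyt2 table against 205 to 1048 CPM in KPsh and 122 to 569.8 CPM in KPnull cells. Of 10 leukocyte markers 8 were below 1 CPM in every library, with Itgax, Adgre1 and Nkg7 among those at 0 throughout, while Csf1r and Cd68 were above it, and fibroblast and endothelial markers summed to at most 9.38 and 8.27 CPM. Ductal sums were higher off doxycycline (12321 to 13002 against 6796 to 7092 CPM in KPsh) and with p53WT or TAD2m (7854 to 8377 against 5477 to 5895 CPM in vector cells), and the share of mitochondrial counts was 3.01% to 3.09% with p53WT or TAD2m against 2.25% to 2.36% in vector cells. In the Pcyt2 table it was 3.31% to 3.51% off and 1.86% to 2.00% on doxycycline. Leukocyte marker sums were 18.3 to 24.3 CPM off and 11.6 to 14.7 CPM on doxycycline in KPsh, and 25.7 to 31.3 CPM with p53WT, TAD1m or TAD2m against 17.1 to 18.5 CPM in vector cells, with TAD12m between (19.2 to 22.8). In cDNA cells they were higher off doxycycline (13.3 to 13.8 against 10.62 to 11.03 CPM) and in sgPcyt2 cells lower (8.80 to 10.4 against 11.8 to 13.4 CPM). The part of these differences in the results was not tested.

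Per kilobase of counted transcript, B2m was the highest member in KPsh cells off doxycycline, at 82.2 ± 2.6 CPM per kb against 35.1 ± 4.4 on it (SD, n = 3). On doxycycline H2-D1 was the highest, at 56.1 CPM per kb, and it reached 77.6 off it. H2-K1 (25.5 off, 14.1 on), Psmb10 (11.4 and 17.3) and Tapbp (9.78 and 6.37) came next. Tap1 was at 1.51 CPM per kb off doxycycline and 0.0137 on it, Nlrc5 at 0.246 and 0.0503, and Tap2 at 0.0533 and 0.0433. The message for the light chain and heavy chains was therefore present in each KPsh library, while that for the transporter and Nlrc5 was scarce or near the limit of counting. Psmb8 was not counted in any KPsh or Pcyt2-edited library. In KPnull cells it gave a deposited 0.5, rounded up to 1 count, in each of the p53WT, TAD2m and TAD12m groups. The counted transcripts of Tap1, Psmb8 and Psmb9 differ between the tables, so their levels are not set across tables.

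**Figure D1:**
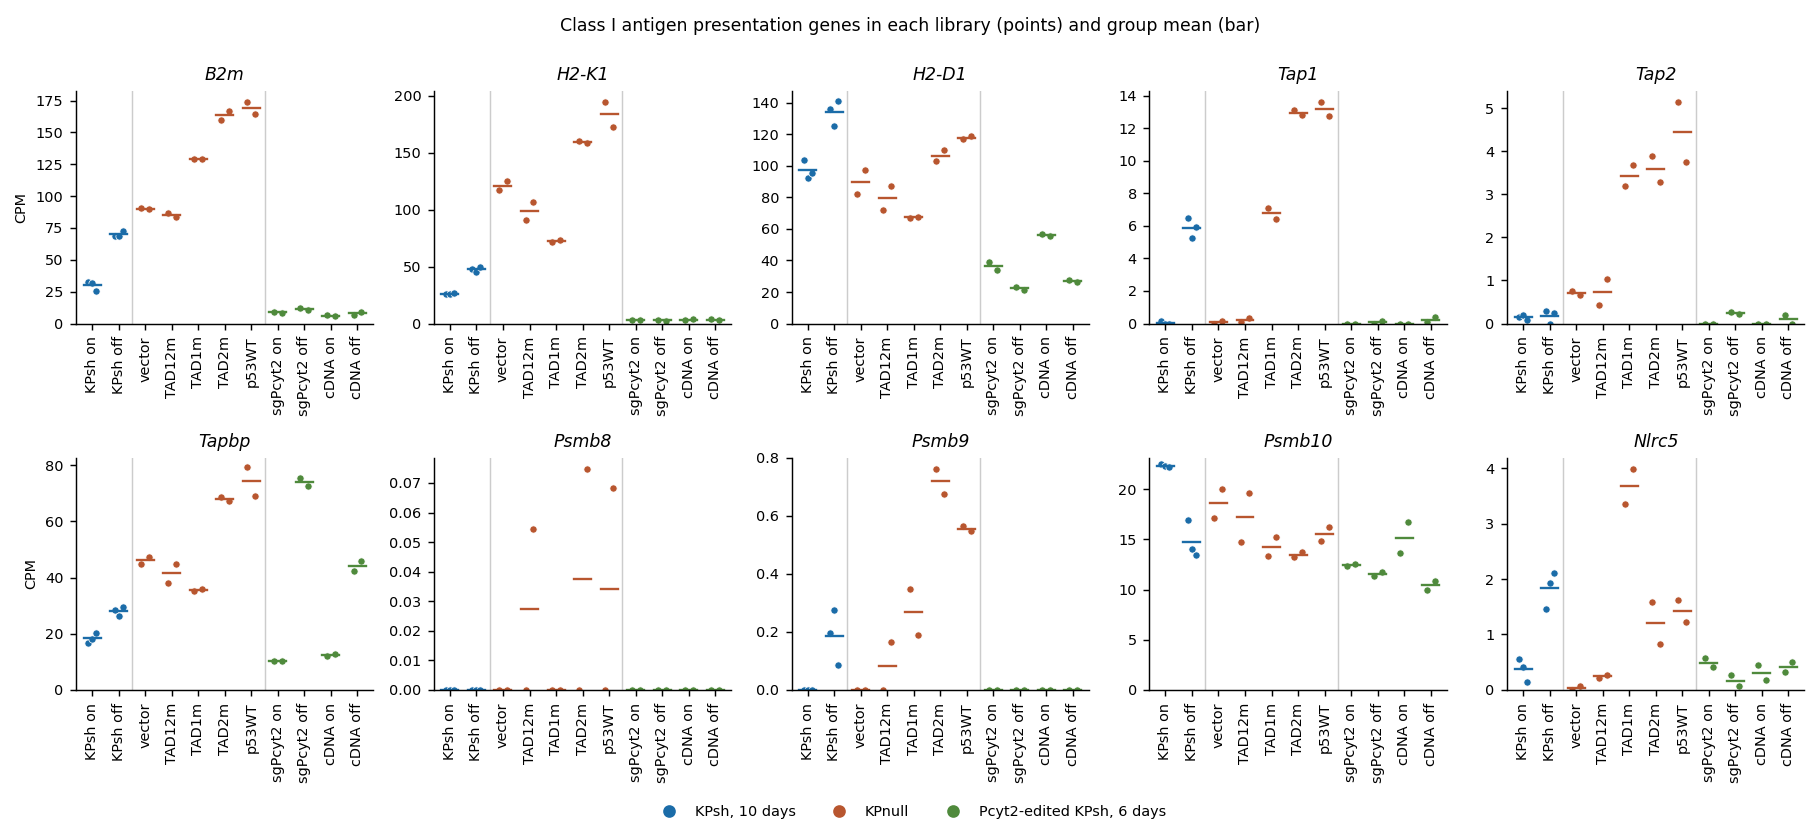
Levels in CPM (vertical axes from 0) of the 10 genes in each library (points) with group means (bars), for KPsh cells on and off doxycycline for 10 days, KPnull cells with vector or a p53 form, and Pcyt2-edited KPsh cells on and off doxycycline for 6 days. Tap1 lies near 0 in KPsh cells on doxycycline, with vector and with TAD12m, between 5.25 and 6.45 CPM in KPsh cells off doxycycline, and, in the KPnull table, between 6.41 and 13.6 CPM with p53WT, TAD1m or TAD2m.

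The first comparison asks how the genes change when endogenous p53 returns for 10 days. Of the 10 members 7 passed the filter on low counts. Tap1 and Nlrc5 did so only through the libraries in which they were high, so they are described without a test. Of the other 5, which had at least 10 counts in every library on doxycycline, B2m, H2-K1, H2-D1 and Tapbp rose and Psmb10 fell (edgeR quasi-likelihood test, Benjamini-Hochberg adjusted p under 0.05). Withdrawal changed much of the transcriptome: 64.8% of the 13990 genes tested were called, 33.1% as higher and 31.7% as lower. Return of p53 and removal of doxycycline cannot be told apart in this comparison. The median log2 change of the 5 well counted members was 0.62 against 0.01 over all genes tested. Tap2, Psmb8 and Psmb9 did not pass.

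B2m, the light chain of every class I molecule, was at 68.9, 68.8 and 72.7 CPM off doxycycline and at 32.2, 31.9 and 25.6 CPM on it. The groups did not overlap, and the change was 2.35-fold (log2 1.24 ± 0.08 SE, adjusted p = 2.24e-11). H2-K1, a heavy chain, had 47.4, 45.6 and 49.3 CPM off and 26.3, 25.8 and 26.7 CPM on doxycycline, a log2 change of 0.85 ± 0.08 (adjusted p = 3.06e-09). H2-D1, the other classical heavy chain measured, rose less. Its values were 136, 125 and 141 CPM off and 104, 92.2 and 95.5 CPM on, a log2 change of 0.47 ± 0.06 (adjusted p = 1.29e-06). All off libraries of both heavy chains lay above all on libraries. H2-K1 shares 8.11% and H2-D1 14.3% of its 50-base stretches with other genes, mostly class I, so reads of these genes may be divided differently by another counting.

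Tap1 was nearly undetected with p53 silenced. Its counts were 66, 57 and 70 off doxycycline (6.45, 5.25 and 5.92 CPM) and 2, 0 and 0 on it, 193 counts against 2. After scaling, the ratio was 104, with an exact 95% interval of 28.3 to 862 that covers counting error only. Tap2, its partner in the transporter, was scarce in both groups: it was at 0.293, 0 and 0.254 CPM off and 0.16, 0.209 and 0.0755 CPM on doxycycline, overlapping ranges too low to test. Tapbp was at 28.4, 26.5 and 29.7 CPM off and 16.5, 18.3 and 20.3 CPM on, a log2 change of 0.62 ± 0.10 (adjusted p = 9.31e-06), with no overlap. On its transcript 23.5% of exon bases are overlapped by Gm19412 on the opposite strand, and both strands were counted. The Gm19412 count was 5.26% to 16.05% of the Tapbp count across libraries. Reads in the shared bases cannot be assigned to either gene from these counts, and their part in the Tapbp changes was not tested.

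Nlrc5, the transactivator, was low, at 0.56, 0.418 and 0.151 CPM on and 1.47, 1.94 and 2.11 CPM off doxycycline, ranges that did not overlap. The inducible subunit Psmb10 went the other way, with 16.9, 14 and 13.4 CPM off and 22.5, 22.3 and 22.2 CPM on doxycycline (log2 -0.60 ± 0.11, adjusted p = 3.22e-05). Psmb9 gave 6 counts off and 0 on doxycycline, 2.15-fold higher when 3 counts are allowed for the on group. That figure takes the 6 counts as exact and is no lower bound. The 3 inducible proteasome subunits thus showed 1 fall, 1 count near the floor and 1 gene with no count.

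The next question was which p53 forms change these genes when expressed in cells without p53. All 4 comparisons share the same 2 vector libraries. Here 9 members passed the filter, but Tap1, Psmb9 and Nlrc5 only through the groups in which they were high, so their differences from vector are described without a test. The other 6 (B2m, H2-K1, H2-D1, Tap2, Tapbp and Psmb10) had at least 10 counts in both vector libraries. With p53WT 5 of the 6 rose and Psmb10 was not called, against 50.6% of 15075 genes called (25.5% higher and 25.1% lower). With TAD2m 5 rose and Psmb10 fell (49.1% of genes called, 24.9% higher and 24.2% lower). With TAD1m 2 rose and 4 fell (36.4% called, 19% higher and 17.5% lower). With TAD12m none rose and 1 fell (3.85% called, 2.00% higher and 1.85% lower). Median log2 changes of the 6 were 0.64 with p53WT, 0.48 with TAD2m, -0.37 with TAD1m and -0.13 with TAD12m, against -0.01 over all genes for the first 3 of these comparisons.

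B2m was at 90.9 and 89.7 CPM in vector cells, 174 and 164 with p53WT, 160 and 167 with TAD2m, 129 and 129 with TAD1m and 86.6 and 83.4 with TAD12m. The p53WT and TAD2m ranges overlapped, TAD1m stood between them and vector, and TAD12m was just below vector. Against vector, log2 changes were 0.91 ± 0.06 with p53WT (adjusted p = 1.66e-09), 0.86 ± 0.06 with TAD2m (3.62e-09) and 0.51 ± 0.06 with TAD1m (3.16e-06), while that with TAD12m was -0.09 (0.637).

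The heavy chains parted from B2m under TAD1m. H2-K1 was at 117 and 125 CPM with vector, 194 and 173 with p53WT, 160 and 159 with TAD2m, 72 and 73.4 with TAD1m and 90.5 and 106 with TAD12m, and none of these ranges overlapped. It rose with p53WT (log2 0.60 ± 0.07, adjusted p = 4.96e-06) and TAD2m (0.40 ± 0.08, 3.48e-04) and fell with TAD1m (-0.74 ± 0.08, 1.76e-06). It also fell with TAD12m (-0.30 ± 0.08, adjusted p = 0.037), a call that was lost with the replicate number as a block (0.0559), without TAD12m replicate 1 (0.237), without vector replicate 1 (0.0689) and without vector replicate 2 (0.203). H2-D1 was at 82.3 and 97.1 CPM with vector, 117 and 119 with p53WT, 103 and 110 with TAD2m, 66.8 and 67.9 with TAD1m and 72 and 87.2 with TAD12m. Only its vector and TAD12m ranges overlapped. Its log2 change was 0.40 ± 0.09 with p53WT (adjusted p = 0.00182) and -0.41 ± 0.09 with TAD1m (0.00278). With TAD2m it was 0.25 ± 0.09 (adjusted p = 0.034), which was not called without TAD2m replicate 1 (0.0608), TAD2m replicate 2 (0.191) or vector replicate 1 (0.311).

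Tapbp followed the heavy chains and not the transporter. It was at 45 and 47.4 CPM with vector, 79.3 and 69.2 with p53WT, 68.9 and 67.5 with TAD2m, 35.4 and 36 with TAD1m and 38.1 and 44.9 with TAD12m, with no overlap between neighbouring groups. Its log2 changes were 0.69 ± 0.08 (adjusted p = 3.27e-06) with p53WT, 0.56 ± 0.08 (3.30e-05) with TAD2m, -0.37 ± 0.09 (0.00303) with TAD1m and -0.15 (0.499) with TAD12m. H2-K1, H2-D1 and Tapbp therefore had the same order of group means, p53WT, TAD2m, vector, TAD12m and TAD1m. Not every step of this order was called. None of these genes was called between TAD2m and p53WT, and H2-D1 and Tapbp were called neither between TAD12m and vector nor between TAD12m and TAD1m. All were measured in the same libraries.

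The transporter genes were higher with TAD1m too. Tap1 was at 0 and 0.131 CPM with vector (2 counts in all), 13.6 and 12.7 with p53WT, 13.1 and 12.8 with TAD2m and 7.11 and 6.41 with TAD1m. Ratios to vector were 229 (exact 95% interval 63.0 to 1899, counting error only), 225 (62.0 to 1869) and 118 (32.3 to 980). TAD12m had 0.105 and 0.327 CPM, 8 counts in all and a ratio of 3.73 (0.745 to 36.1). Tap2 was at 0.766 and 0.657 CPM with vector, 5.13 and 3.76 with p53WT, 3.88 and 3.29 with TAD2m, 3.18 and 3.68 with TAD1m and 0.422 and 1.04 with TAD12m. The ranges of p53WT, TAD2m and TAD1m overlapped as neighbours, and all 3 lay above vector. Tap2 rose by log2 2.62 ± 0.31 (adjusted p = 2.19e-06), 2.31 ± 0.32 (1.62e-05) and 2.24 ± 0.32 (3.73e-05) with p53WT, TAD2m and TAD1m, and the TAD12m change was 0.01 (0.998).

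Nlrc5 was the one member for which TAD1m gave the highest level. It had 1 count in the vector group (0 and 0.0657 CPM), 44 with p53WT (1.63 and 1.23 CPM), 34 with TAD2m (1.59 and 0.824 CPM), 121 with TAD1m (3.35 and 4 CPM) and 9 with TAD12m (0.211 and 0.273 CPM). Ratios to vector were 50.04 (exact 95% interval 8.52 to 2021) with p53WT, 42.6 (7.14 to 1731) with TAD2m and 127 (22.4 to 5072) with TAD1m. With TAD12m the ratio was 8.40 (1.16 to 368).

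The inducible proteasome subunits did not rise as a set. Psmb9 gave 0 counts with vector, 17 with p53WT, 20 with TAD2m, 9 with TAD1m and 3 with TAD12m. With 3 counts allowed for vector, p53WT, TAD2m and TAD1m were 6.44-fold, 8.35-fold and 3.16-fold higher. These figures take the counts with a p53 form as exact. Of the Psmb9 exon bases 15.7% are overlapped by Tap1 on the opposite strand in this table, and reads of both strands were counted. Psmb10 was at 17.1 and 20 CPM with vector, 14.8 and 16.3 with p53WT, 13.4 and 15.2 with TAD1m, 13.2 and 13.7 with TAD2m and 14.8 and 19.7 with TAD12m. Neighbouring groups overlapped throughout. Its change was -0.46 ± 0.14 with TAD2m (adjusted p = 0.0108), lost without TAD2m replicate 1 (0.0765) or vector replicate 2 (0.0849). With TAD1m it was -0.38 ± 0.13 (0.0357), lost under DESeq2 (0.105) and without TAD1m replicate 1 (0.234), TAD1m replicate 2 (0.0592) or vector replicate 2 (0.192). With p53WT it was -0.25 ± 0.13 (0.125) and with TAD12m -0.11 (0.866).

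**Figure D2:**
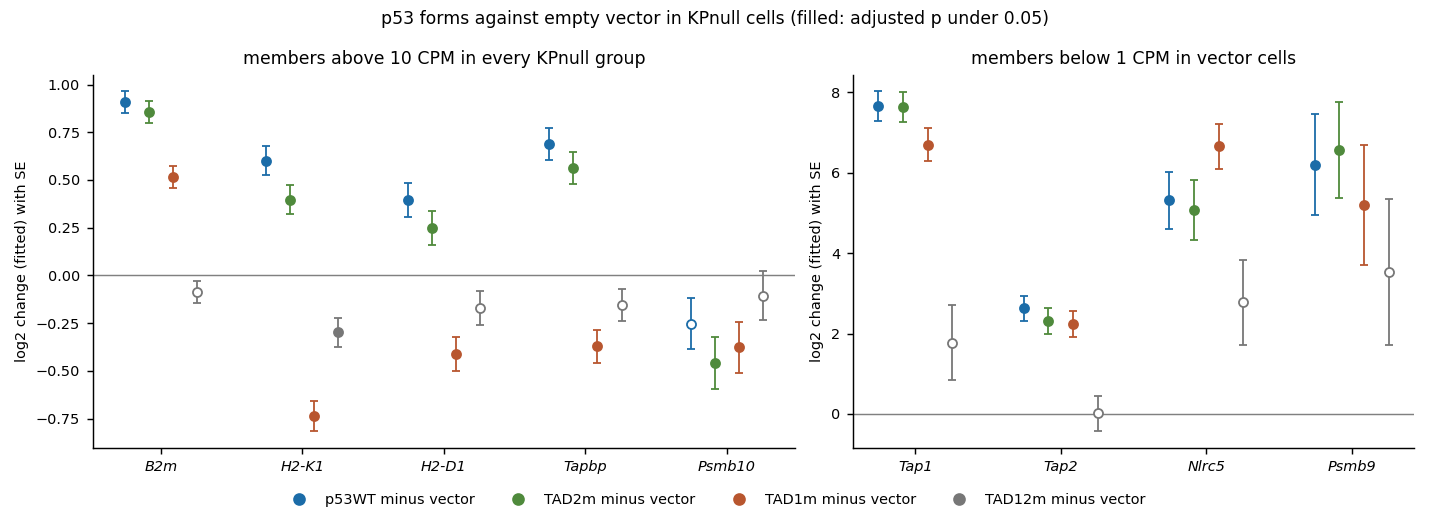
Fitted log2 change from empty vector (vertical axes) with its standard error for 9 members and the 4 p53 forms in KPnull cells. Filled points had an adjusted p under 0.05, which for Tap1, Nlrc5 and Psmb9 is no evidence, since these passed the filter only where they were high. H2-K1, H2-D1 and Tapbp lie above 0 with p53WT and TAD2m and below 0 with TAD1m, while Tap1, Tap2 and Nlrc5 lie above 2 with all 3 forms.

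Comparing the forms directly, 4 of the 6 well counted members were lower with TAD1m than with p53WT and 0 were higher. Of all genes 39.1% were called, 18.7% lower and 20.4% higher. H2-K1 was 2.52-fold lower (log2 -1.34 ± 0.08, adjusted p = 1.59e-09), Tapbp 2.08-fold lower (-1.06 ± 0.09, 5.69e-08) and H2-D1 1.75-fold lower (-0.81 ± 0.09, 7.12e-06). B2m was also lower (-0.39 ± 0.06, adjusted p = 3.65e-05). Outside those 6, Tap1 was lower (-0.96 ± 0.16, adjusted p = 1.22e-04) and Nlrc5 higher (1.35 ± 0.27, 8.74e-04). Tap1 and Nlrc5 were counted above the filter's minimum with either form. Tap2 (-0.38, adjusted p = 0.205) and Psmb10 (-0.12, 0.522) did not pass. Psmb9 had too few counts with either form to be judged. Nlrc5 and the heavy chain genes thus differed between these forms in opposite directions.

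Between TAD2m and p53WT none of the 9 members was called, against 0.285% of genes called (0.199% higher and 0.0862% lower). H2-K1 differed by log2 -0.20 ± 0.07 in the edgeR fit (adjusted p = 0.687), and under DESeq2 no member was called. The other differences were -0.05 ± 0.06 for B2m, -0.15 ± 0.09 for H2-D1, -0.12 ± 0.08 for Tapbp and -0.02 ± 0.15 for Tap1, and less precise for Tap2 (-0.31 ± 0.23), Psmb9 (0.37 ± 0.50), Psmb10 (-0.21 ± 0.14) and Nlrc5 (-0.23 ± 0.35).

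Between TAD12m and TAD1m, which differ in domain 2, 2 of the 6 well counted members were lower with TAD12m and 1 was higher (31% of genes called, 16.8% lower and 14.2% higher). Tap2 fell by 2.23 ± 0.31 on the log2 scale (adjusted p = 4.32e-05) and B2m by 0.60 ± 0.06 (7.13e-07). Tap1 and Nlrc5, near the limit of counting with TAD12m, also had every TAD12m library below every TAD1m library. H2-K1 was higher with TAD12m (0.44 ± 0.08, adjusted p = 4.52e-04). H2-D1 (0.24, adjusted p = 0.0603), Tapbp (0.22, 0.0698) and Psmb10 (0.27, 0.139) did not pass. The H2-D1 difference was called with RLE scaling (0.041), without the low-count filter (0.00783), with the replicate block (0.0257) and without TAD12m replicate 1 (0.00267). Without that library Tapbp (0.011) and Psmb10 (0.0113) were called too.

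The third table asks whether the response to withdrawal differs between sgPcyt2 and cDNA cells, after 6 days. In unedited KPsh cells, counted and scaled separately, Pcyt2 was at 83.4 to 114 CPM. The sgPcyt2 cells lay below that range and the cDNA cells, at 2193 to 2636 CPM, far above it. Trp53 off doxycycline also differed, at 41.9 CPM in sgPcyt2 and 92.0 CPM in cDNA cells. Pcyt2 loss, Pcyt2 excess and Trp53 level cannot be told apart here. Here 5 members passed the filter, B2m, H2-K1, H2-D1, Tapbp and Psmb10. In sgPcyt2 cells 2 rose and 1 fell on withdrawal (76.3% of 14916 genes called, 39.2% higher and 37.1% lower), and in cDNA cells 2 rose and 2 fell (73.5% called, 37.3% higher and 36.3% lower). Their median log2 changes were -0.03 and -0.20, against 0.02 over all genes in both.

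Tapbp changed most. It was at 10.2 and 10.3 CPM on and 75.4 and 72.8 CPM off doxycycline in sgPcyt2 cells, and at 12.1 and 12.6 CPM on and 42.2 and 46 CPM off in cDNA cells. The 4 ranges did not overlap. Withdrawal raised it 7.23-fold in sgPcyt2 (log2 2.85 ± 0.08, adjusted p = 9.90e-32) and 3.55-fold in cDNA cells (1.83 ± 0.09, 1.38e-23). The difference between those responses was 1.02 ± 0.13 on the log2 scale (adjusted p = 2.82e-08). Off doxycycline Tapbp was higher in sgPcyt2 than in cDNA cells (0.75 ± 0.07, adjusted p = 3.65e-13), and on doxycycline the difference was -0.28 (0.0937). Between sgPcyt2 and cDNA cells, 1 member was higher and 1 lower on doxycycline (18.4% of genes called, 8.40% higher and 10.0% lower). Off it 2 were higher and 1 lower (33.1%, 16.3% and 16.8%). For 2 members the log2 change on withdrawal was more positive in sgPcyt2 cells (25.2% called, 12.8% higher and 12.4% lower). Of these, Tapbp rose more and H2-D1 fell less than in cDNA cells.

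H2-D1 fell on withdrawal. It was at 38.8 and 33.7 CPM on and 23.4 and 21.1 CPM off in sgPcyt2 cells, and at 56.6 and 55.2 CPM on and 27.7 and 26.4 CPM off in cDNA cells, with no overlap among the 4 groups. Its log2 changes were -0.70 ± 0.08 (adjusted p = 3.42e-10) and -1.05 ± 0.08 (5.14e-17). The responses differed by 0.34 ± 0.11 (adjusted p = 0.0215), a call lost without the low-count filter (0.0554), under DESeq2 (0.18) and without sgPcyt2 on replicate 2 (0.139), sgPcyt2 off replicate 1 (0.204), cDNA on replicate 1 (0.0609) or cDNA off replicate 2 (0.133). On doxycycline H2-D1 was lower in sgPcyt2 than in cDNA cells (-0.62 ± 0.07, adjusted p = 2.84e-09). Off doxycycline the difference was -0.28 ± 0.09 (0.0114), which DESeq2 (0.0882) and the fits without sgPcyt2 off replicate 2 (0.111) or cDNA off replicate 1 (0.0877) did not call.

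B2m was low in this table, at 9.35 and 8.63 CPM on and 12.1 and 10.7 CPM off in sgPcyt2 cells and at 6.32 and 6.2 CPM on and 7 and 8.78 CPM off in cDNA cells. Off libraries were above on libraries in both, but the changes were small. They were 0.35 ± 0.14 (adjusted p = 0.0197) in sgPcyt2 and 0.34 ± 0.15 (0.046) in cDNA cells. DESeq2 called neither (0.191 and 0.217). The first was lost without sgPcyt2 on replicate 2 (0.114) or off replicate 1 (0.191), and the second with the replicate block (0.0532) and without cDNA on replicate 1 (0.101), on replicate 2 (0.157) or off replicate 2 (0.437). B2m was higher in sgPcyt2 than in cDNA cells on doxycycline (0.52 ± 0.15, adjusted p = 0.00951) and off it (0.53 ± 0.14, 0.00199). DESeq2 did not call these either (0.129 and 0.0642). The first was lost without sgPcyt2 on replicate 1 (0.0919) or cDNA on replicate 2 (0.0911), and the second without sgPcyt2 off replicate 1 (0.0568) or cDNA off replicate 1 (0.0908).

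H2-K1 had 2.97 and 2.85 CPM on and 3.27 and 2.4 CPM off in sgPcyt2 cells and 2.72 and 4.37 CPM on and 3.66 and 2.68 CPM off in cDNA cells, and all ranges overlapped. Its changes were -0.03 ± 0.25 (adjusted p = 0.907) and -0.20 ± 0.23 (0.447). Psmb10 was at 12.4 and 12.6 CPM on and 11.4 and 11.7 CPM off in sgPcyt2 cells (-0.11 ± 0.13, adjusted p = 0.429) and at 13.7 and 16.7 CPM on and 9.94 and 10.9 CPM off in cDNA cells (-0.55 ± 0.12, 7.80e-05). The difference between these Psmb10 responses was 0.44 ± 0.17 and missed the threshold (adjusted p = 0.0565), but was called without cDNA on replicate 1 (0.0202). Between the lines on doxycycline Psmb10 differed by -0.29 (adjusted p = 0.0787), which was likewise called without that library (0.0294).

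The transporter and the transactivator were scarcely counted in Pcyt2-edited cells. Tap1 gave 0 counts in all 4 on libraries and 0, 0.141, 0.0654 and 0.373 CPM in the off libraries. The last 2 are from cDNA cells (7 counts against 0, 2.27-fold higher with 3 counts allowed). Tap2 also had 0 counts in the on libraries, with 0.267 and 0.212 CPM off in sgPcyt2 cells (7 counts, 2.44-fold). In cDNA cells off doxycycline Tap2 was at 0.196 and 0 CPM. Both folds take the 7 counts as exact and are no lower bounds. Nlrc5 was at 0.569 and 0.408 CPM on and 0.267 and 0.0706 CPM off in sgPcyt2 cells, and at 0.441 and 0.177 CPM on and 0.327 and 0.498 CPM off in cDNA cells. Psmb8 and Psmb9 had no count.

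Set beside the KPsh cells of the first table, which were counted and scaled separately, B2m was at 7.34 to 13.4 CPM per kb in the 4 Pcyt2-edited groups against 35.1 and 82.2, and H2-K1 at 1.52 to 1.90 against 14.1 and 25.5. Tapbp ranged from 3.55 to 25.7 CPM per kb against 6.37 and 9.78. The same transcripts were counted for these genes in both tables. These level differences across tables, and the difference in H2-D1 direction between 10 days and 6 days, were not tested, and table, editing and time cannot be told apart. The cells of these tables also stood apart in Krt7, as given above.

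**Figure D3:**
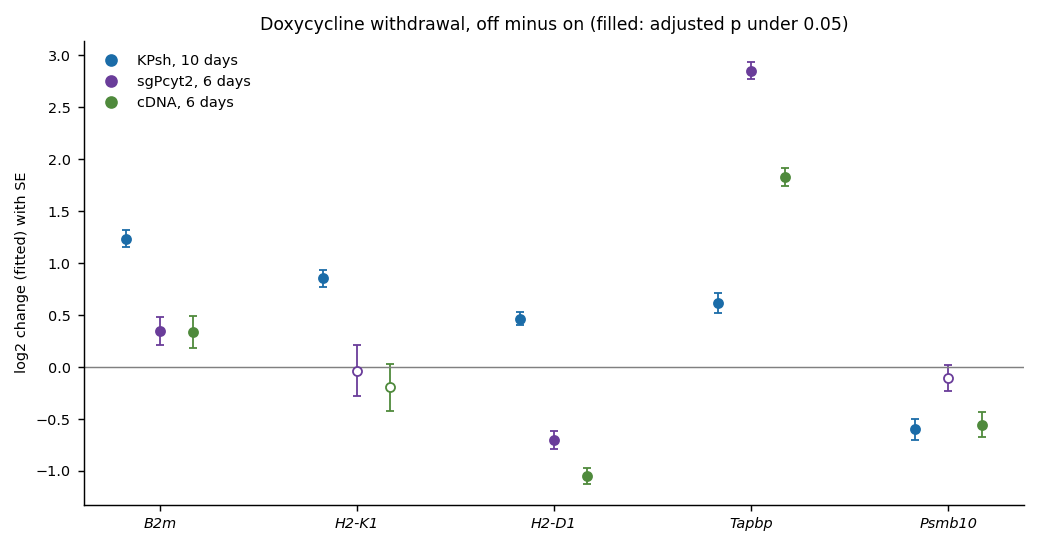
Fitted log2 change on doxycycline withdrawal, off minus on (vertical axis), with its standard error for 5 members in KPsh cells after 10 days and in sgPcyt2 and cDNA cells after 6 days. Filled points passed adjusted p under 0.05. Tapbp is above 0 in all 3, highest in sgPcyt2 cells at 2.85, and H2-D1 is above 0 in KPsh cells and below 0 in both Pcyt2-edited cells.

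Around the members, the standard proteasome gave a background for the inducible subunits. The 15 genes of this list are the 14 subunits of the standard core particle and the assembly factor Pomp. In KPsh cells 2 fell (median log2 change -0.05, 31.7% of all genes lower). Another 2, Psma2 and Psma6, were called higher, but neither call held with the replicate block (adjusted p = 0.0644 and 0.0807), under DESeq2, without the low-count filter or without on replicate 2 or 3. With p53WT none rose and 9 fell (median -0.25, 25.1% of all genes lower), and with TAD2m 11 fell (-0.20, 24.2%). With TAD1m 6 fell (-0.17, 17.5%), and with TAD12m none was called (0.01, 3.85% of all genes called). The TAD2m count was 7 without TAD2m replicate 1 or without vector replicate 1. On withdrawal 14 fell in sgPcyt2 and all 15 in cDNA cells (medians -0.61 and -0.58, against 37.1% and 36.3% of all genes lower and medians of 0.02 over all genes). Psma1 was at 172 to 197 CPM with vector and 129 to 135 CPM with p53WT (-0.49 ± 0.07, adjusted p = 1.55e-05), and Psma3 went from 215 to 231 CPM on to 110 to 111 CPM off in sgPcyt2 cells (-1.02 ± 0.05, 8.34e-25). Psma5 fell in KPsh cells (-0.40 ± 0.06, adjusted p = 1.26e-05) and with TAD1m (-0.43 ± 0.07, 1.25e-04).

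Levels per kb show how far the standard subunits exceeded their inducible counterparts. Psmb7, which Psmb10 can replace, was at 181 and 194 CPM per kb in KPsh cells off and on doxycycline, and Psmb10 was at 5.59% to 7.27% of Psmb7 off and 8.74% to 9.16% on, without overlap. In sgPcyt2 cells this share was 9.40% to 10.1% off and 5.68% to 5.75% on, the opposite order, with Psmb7 at 91.7 CPM per kb off and 169 on. Psmb6, the counterpart of Psmb9, was at 222 CPM per kb in KPsh cells off doxycycline, and Psmb5, that of Psmb8, at 65.8. In KPnull cells Psmb10 stood at 7.27% to 11.1% of Psmb7. Group ranges overlapped, except those of p53WT (9.88% to 10.9%) and TAD2m (8.94% to 9.36%).

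The 4 proteasome activators did not move together. In KPsh cells 2 rose and 2 fell (64.8% of all genes called). With p53WT, TAD2m and TAD1m 2 rose and 1 fell in each (50.6%, 49.1% and 36.4%), and with TAD12m none was called (3.85%). On withdrawal 2 rose and 2 fell in sgPcyt2 and 2 rose and 1 fell in cDNA cells (76.3% and 73.5%). Leaving out 1 library moved each of these counts by at most 1. Psme4 fell in KPsh cells, a call lost without off replicate 1 or 3. Psme1 and Psme2 form the interferon-inducible PA28 cap, and Psme3 the nuclear one. In KPsh cells Psme1 was at 45.6 to 50.2 CPM off and 29.1 to 30.5 CPM on (0.66 ± 0.08, adjusted p = 1.52e-07), Psme2 rose (0.52 ± 0.10, 1.73e-04) and Psme3 fell (-0.36 ± 0.06, 7.43e-06). With p53WT the changes were 0.60 ± 0.08 (adjusted p = 1.57e-05), 0.46 ± 0.10 (0.00108) and -0.34 ± 0.05 (2.84e-05), and with TAD2m 0.43 ± 0.08, 0.58 ± 0.10 and -0.36 ± 0.05. Psme1 also rose with TAD1m (0.38 ± 0.08, adjusted p = 0.00184), and with TAD12m it was at 0.02 ± 0.08 (0.98). On withdrawal Psme1 rose by 1.10 ± 0.08 in sgPcyt2 (adjusted p = 1.05e-17) and 0.85 ± 0.08 in cDNA cells (6.75e-14), and Psme3 fell by 0.68 and 0.58.

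**Figure D4:**
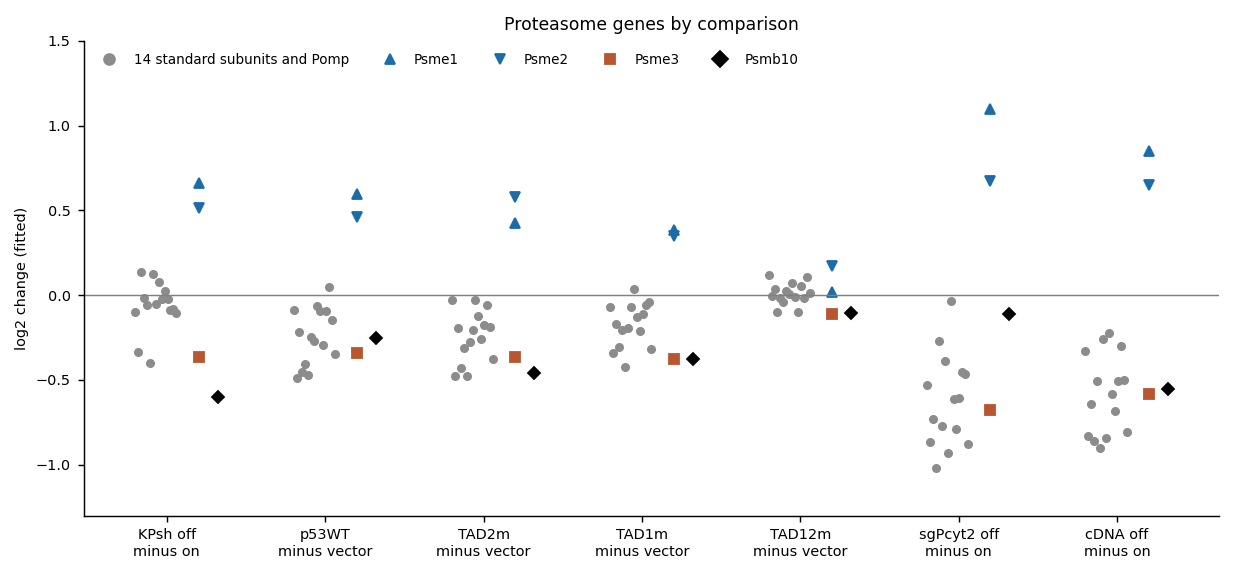
Fitted log2 change (vertical axis) of the 15 standard proteasome genes (grey circles), the activators Psme1 and Psme2 (blue triangles) and Psme3 (squares), and Psmb10 (black diamonds) in 7 comparisons, with no error bars. Psme1 and Psme2 lie above the standard genes in each comparison but TAD12m minus vector, where Psme1 is at 0.02.

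Of the 9 peptide loading and trimming genes, 3 rose and 1 fell in KPsh cells (64.8% of all genes called), 1 rose with p53WT (50.6%), 2 rose and 2 fell with TAD1m (36.4%), 2 rose and 1 fell with TAD2m (49.1%) and none was called with TAD12m (3.85%). Leaving out 1 library moved each of these counts by at most 1. Bcap31, an export receptor of the endoplasmic reticulum, rose in KPsh cells (0.55 ± 0.05), with p53WT (0.45) and with TAD1m (0.34). Pdia3, the disulfide isomerase of the loading complex, was at 1025 to 1075 CPM off and 728 to 825 CPM on in KPsh cells (0.44 ± 0.06, adjusted p = 4.28e-07). Calr, its chaperone partner, fell with TAD1m (-0.39 ± 0.05, adjusted p = 3.22e-05) and was -0.02 ± 0.05 with p53WT (0.835). In both Pcyt2-edited lines 5 rose and 1 fell, against 76.3% and 73.5% of all genes called. Tapbpl, the tapasin relative TAPBPR, rose by 1.36 ± 0.19 in sgPcyt2 (adjusted p = 1.19e-08) and 0.53 ± 0.18 in cDNA cells (0.00803). Erap1, the trimming peptidase, rose from 24.5 to 29.3 CPM on to 49.2 to 52.8 CPM off in sgPcyt2 cells (0.93 ± 0.08, adjusted p = 6.67e-15), and by 0.90 ± 0.08 in cDNA cells. In KPsh cells Erap1 was at 0.00 ± 0.11 (adjusted p = 0.979).

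Among 16 other class I and class I-like heavy chains, 8 passed the filter in KPnull cells and 6 in each of the other tables. H2-T23, which encodes the Qa-1 molecule, was at 16.996 to 17.99 CPM off and 8.99 to 11.3 CPM on in KPsh cells (0.85 ± 0.12, adjusted p = 1.68e-06). With p53WT it was at 10.4 to 10.5 CPM against 6.33 to 6.64 CPM in vector cells (0.69 ± 0.14, adjusted p = 7.99e-04), and with TAD1m it was lower than with p53WT (-1.05 ± 0.15, 3.69e-05). On withdrawal it reached 82.2 to 89.6 CPM from 11.1 to 12.3 CPM in sgPcyt2 cells (2.87 ± 0.08, adjusted p = 1.16e-32) and 65.8 to 70.8 CPM from 11.03 to 11.98 CPM in cDNA cells (2.56 ± 0.08, 3.94e-30). H2-T22 also rose, by 0.69 ± 0.13 in KPsh, 1.29 ± 0.12 in sgPcyt2 and 1.38 ± 0.12 in cDNA cells. Fcgrt, the neonatal Fc receptor, rose with p53WT (0.74 ± 0.17, adjusted p = 0.00163) and was lower with TAD1m than with p53WT (-1.40 ± 0.19, 1.59e-05). Of the genes tested, 2 rose and 2 fell in KPsh cells (64.8% of all genes called), 3 and 1 with p53WT (50.6%), 1 and 1 with TAD1m (36.4%), 3 and 0 with TAD2m (49.1%), 5 and 1 in sgPcyt2 (76.3%) and 4 and 0 in cDNA cells (73.5%). None of the 3 TAD2m calls (H2-T23, H2-T22 and Fcgrt) held under DESeq2 (adjusted p = 0.159, 0.0856 and 0.0971) or without TAD2m replicate 1 (0.324, 0.0582 and 0.135), and 1 held without vector replicate 1 and 1 without vector replicate 2. Neither TAD1m call held under DESeq2, and neither KPsh fall under DESeq2 or without off replicate 3. Reads may be shared between these near-identical genes.

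Of 15 interferon receptors and JAK-STAT-IRF genes, 6 rose and 4 fell in KPsh cells (33.1% and 31.7% of all genes). With p53WT 8 rose and 2 fell (25.5% and 25.1%), and with TAD2m 9 rose and 3 fell (24.9% and 24.2%). With TAD1m 3 rose and 5 fell (19% and 17.5%), and with TAD12m 0 rose and 1 fell (2.00% and 1.85%). On withdrawal 10 rose and 2 fell in sgPcyt2 (39.2% and 37.1%) and 10 rose and 3 fell in cDNA cells (37.3% and 36.3%). The total called in KPsh and Pcyt2-edited cells was near that of all genes. With TAD1m 3 fell without TAD1m replicate 1 or vector replicate 1, with TAD2m 6 rose without TAD2m replicate 2, and the TAD12m call was lost without TAD12m replicate 2 or vector replicate 1. Ifngr1, a chain of the interferon gamma receptor, rose in KPsh cells (0.56 ± 0.06, adjusted p = 2.02e-08) and was lower with TAD1m than with p53WT (-0.65 ± 0.05, 7.28e-08). Irf1, a factor that binds the interferon element, was at 32.2 to 32.7 CPM off and 17.01 to 18.8 CPM on in KPsh cells (0.85 ± 0.09, adjusted p = 2.14e-08), but at 22.3 to 24.5 CPM in every KPnull group (-0.01 ± 0.09 with p53WT, 0.915). Stat2 rose with p53WT (0.59 ± 0.10, adjusted p = 1.00e-04) and TAD2m (0.67 ± 0.10, 3.22e-05) and was -0.01 ± 0.10 with TAD1m (0.947). Ifngr2, the second receptor chain, rose by 2.24 ± 0.06 on withdrawal in sgPcyt2 and 1.03 ± 0.06 in cDNA cells, a difference of 1.21 ± 0.09 (adjusted p = 8.71e-16).

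Of 11 nucleic acid sensing genes 9 were tested. In KPsh cells 3 rose and 1 fell (64.8% of all genes called), and with p53WT and with TAD2m 6 rose and 1 fell (50.6% and 49.1%). With TAD1m 4 rose and 1 fell (36.4%), and with TAD12m none was called (3.85%). Without TAD1m replicate 2 the TAD1m count was 2 and 0, with Mavs (adjusted p = 0.155), Irf3 (0.0935) and Cgas (0.0886) lost, and without vector replicate 1 it was 2 and 1. Ddx58, the RNA sensor RIG-I, was at 8.11 to 10.4 CPM off and 2.72 to 4.24 CPM on in KPsh cells (1.37 ± 0.18, adjusted p = 1.03e-06) and rose with p53WT (0.92 ± 0.17, 2.82e-04) but was 0.17 ± 0.18 with TAD1m (0.526). Cgas, the DNA sensor, fell with p53WT (-0.91 ± 0.15, adjusted p = 6.46e-05) and TAD2m (-0.94 ± 0.15, 6.03e-05). On withdrawal 4 rose and 1 fell in sgPcyt2 cells and 4 rose and 2 fell in cDNA cells (76.3% and 73.5% of all genes called), with Ddx58 up by 2.01 ± 0.14 and 2.28 ± 0.13.

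Of 15 class I promoter factors, 5 rose and 6 fell in KPsh cells (33.1% and 31.7% of all genes). With p53WT 4 rose and 7 fell (25.5% and 25.1%), and with TAD2m 3 rose and 7 fell (24.9% and 24.2%). With TAD1m 3 rose and 3 fell (19% and 17.5%), and with TAD12m none was called (3.85% of all genes called). In KPsh cells both shares are near those of all genes. With p53WT 2 rose without vector replicate 1 or p53WT replicate 1, and with TAD1m 1 fell under DESeq2 and without TAD1m replicate 1, TAD1m replicate 2 or vector replicate 2. Rfx5, which recruits Nlrc5 to the promoter, was at 11.8 to 15.6 CPM off and 6.99 to 9.83 CPM on in KPsh cells (0.69 ± 0.14, adjusted p = 1.94e-04). It rose with p53WT (0.55 ± 0.10, adjusted p = 2.81e-04), was 0.05 ± 0.11 with TAD1m (0.732), and was lower with TAD1m than with p53WT (-0.50 ± 0.10, 0.00106). Relb, an NF-kB subunit, rose in KPsh cells (1.20 ± 0.17, adjusted p = 2.13e-06) and was lower with TAD1m than with p53WT (-0.65 ± 0.12, 3.08e-04). Creb1 and Atf1, which bind CRE sites, fell with p53WT (-0.62 ± 0.08 and -0.52 ± 0.07, adjusted p = 4.85e-06 and 9.27e-06). With TAD1m, Creb1 was -0.04 ± 0.08 (adjusted p = 0.701). On withdrawal 4 rose and 7 fell in sgPcyt2 and 4 rose and 9 fell in cDNA cells (76.3% and 73.5% of all genes called), with Rfx5 up by 1.58 ± 0.13 and 1.66 ± 0.13, Relb up by 1.92 ± 0.15 and 2.07 ± 0.17, and Nfya down (-1.09 ± 0.06 and -0.84 ± 0.06). In these cells Rfx5 rose and H2-D1 fell, and whether these changes are linked was not tested. Of 8 class II genes, which Ciita controls, only H2-DMa passed the filter, and it fell in KPsh cells (-0.93 ± 0.23, adjusted p = 0.0012) and was not called in any other comparison.

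Across the 11 group means, the 5 members with a mean of at least 1 CPM in each table did not share one profile. Pearson's r of each with the average of the others was 0.75 for H2-K1, 0.50 for B2m, 0.09 for Tapbp, 0.02 for H2-D1 and -0.59 for Psmb10. Of 10023 other genes, those with the profile most like the average of these 5 members included Alg12, Rilpl1 and Snx15 (r = 0.96 each) and P4hb (0.95). Alg12, a mannosyltransferase of the endoplasmic reticulum, had means of 13.9 CPM on and 16.1 CPM off doxycycline in KPsh cells, where the ranges overlapped, and of 18.2 CPM with vector and 21.7 CPM with p53WT. These are descriptions over 11 points, which share tables and, within a table, scaling.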

How the data were processed

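RNA was extracted with TRIzol and made into TruSeq stranded mRNA libraries, per the labels' protocols. The submitters' processing notes name STAR 2.6.1c, HOMER and mm10. The deposited values are expected counts in steps of 0.5 over the exons of 1 transcript per gene (GENCODE vM25, both strands), as the authors made them with HOMER, per the file headers. The 3 tables were processed separately here.

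Counts were rounded, always upward from a deposited 0.5, which adds to the smallest counts. They were tested with edgeR 4.0.16 in R 4.3.3 (filterByExpr, TMM, quasi-likelihood F test on group means, all groups of a table in 1 fit). Benjamini-Hochberg adjustment was over all genes tested, with a threshold of 0.05. Levels are CPM on TMM-adjusted library sizes. Standard errors follow from the log2 change and its F. A count of 3 per group served as the floor, and ratios of small counts have exact 95% intervals. The fit was first tested on simulated data.

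The members and lists were chosen with earlier results of these data known. Named from each list were up to 4 called genes per comparison with at least 5 CPM on average, by largest change, or where none was called the 2 most abundant. Further genes of the lists were named after their values were seen. Alternatives were RLE scaling, no low-count filter, DESeq2 1.42.0, the replicate number as a block and leaving out each library. Same-numbered replicates showed correlations of their deviations of -0.13 to -0.10 in KPsh, -0.20 to 0.35 in KPnull and -0.07 to 0.01 in the Pcyt2 table, so the numbers were not taken as pairs. A few genes that the naming rules or lists include are not reported here.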

Additional observations from a re-analysis of the deposited data

Results flagged for a closer look

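The response of 2 members to doxycycline withdrawal differed between sgPcyt2 and cDNA cells by the interaction test. For Tapbp the difference in log2 change was 1.02, with all 4 groups apart. For H2-D1 it was 0.34, and the call was lost under DESeq2, without the low-count filter and with any 1 of 4 libraries left out. H2-D1 moved in opposite directions in different cells: every library off doxycycline was lower than every library on it in sgPcyt2 (log2 -0.70) and cDNA cells (-1.05), and every one was higher in KPsh cells (0.47). That last difference was not tested, because the tables were counted and scaled separately, and the time off doxycycline was 10 days in KPsh and 6 days in the Pcyt2-edited cells.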

How the results depend on the processing

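Of 808 member log2 changes recomputed under the alternatives, 740 kept their direction and side of the threshold, 38 lost their call, 9 gained one and 21 changed sign, and no called change was among the 21. Of 1941 recomputed changes of named pathway genes, 222 lost their call and 0 changed sign. The member values include Tap1 and Nlrc5 in KPsh cells and Tap1, Psmb9 and Nlrc5 against vector. Those genes passed the filter only where they were high, so their unchanged calls are no evidence of stability. RLE and DESeq2 scaling moved the median change of all genes by at most 0.016 on the log2 scale, and the fit without the low-count filter by at most 0.044. The replicate block changed 3 of 95 member calls, those of H2-K1 (TAD12m minus vector, leaving 0 members called), B2m and H2-D1 given with the results, and gave 532 genes for TAD12m minus vector and 8665 in KPsh cells. An added block with crossed numbers in KPnull, chosen after seeing the data, gave 8511 genes for p53WT and 8256 for TAD2m against vector. Without the low-count filter 107 genes were called between TAD2m and p53WT. DESeq2 called 1433 genes and 1 member between sgPcyt2 and cDNA on doxycycline, 2862 and 1 off it, and 2236 and 1 in the interaction, where the fit with no filter also called 1 member. Under these the B2m interaction was -0.035 (no filter) and -0.00080 (DESeq2). For TAD12m minus TAD1m, the member counts below cover all 9 members past the filter, with Tap1, Psmb9 and Nlrc5 included. With every library kept, 1 of those 9 was called higher and 4 lower, against 1 and 2 of the 6 well counted members. Tap1, Psmb9 and Nlrc5 were near the limit of counting with TAD12m, so their calls are no evidence of stability. Leaving out 1 library gave, for TAD12m minus vector, 352 to 504 genes and 0 to 1 members, for TAD2m minus p53WT 13 to 23 genes, and for TAD12m minus TAD1m 2760 to 4750 genes and 5 to 8 members. For sgPcyt2 minus cDNA it gave 1680 to 2141 genes and 1 to 3 members on doxycycline and 1 to 3 members off it, and in the interaction 1 to 2 members. Sign changes came in uncalled values only: Tap2 (-0.76 to 0.52) and Psmb10 (-0.33 to 0.088) for TAD12m minus vector, Tap1 (-0.070 to 0.027) and Nlrc5 (-0.80 to 0.15) for TAD2m minus p53WT, H2-K1 on withdrawal in sgPcyt2 (-0.29 to 0.14) and cDNA cells (-0.47 to 0.21), between them on (-0.58 to 0.10) and off (-0.39 to 0.082) doxycycline and in the interaction (-0.25 to 0.43), and B2m in the interaction (-0.17 to 0.16). The cause of these changes was not tested. With 2 libraries in most groups, a left-out library leaves 1 that is assumed to vary like the other groups, and depth limits Tap1, Tap2, Psmb8, Psmb9 and Nlrc5, which had 3 counts or fewer in at least 1 group.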
